A study of Homo sapiens with 24 samples.

Results

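The RNA levels of 10 genes of interleukin-1 and interleukin-6 signalling were followed in a human chondrocyte line: the interleukin-1 ligands IL1A and IL1B, their receptor chains IL1R1 and IL1RAP, the interleukin-6 family ligands IL6, IL11 and LIF, the receptor chain IL6ST that these ligands share, and the colony-stimulating factors CSF2 (GM-CSF) and CSF3 (G-CSF). The genes were chosen by symbol as a family, and each symbol matched 1 of the 62703 gene identifiers in the files. T/C-28a2, an immortalised human chondrocyte line, was sequenced after enrichment for polyadenylated RNA in 24 libraries, 4 in each of 6 groups. Libraries labelled WT Ctr and WT Sor are, by their labels, from cells of the parental genotype without and with sorbitol, a sugar alcohol that raises the osmolarity of the medium. By their labels, the WNK2 trans Ctr and WNK2 trans Sor libraries are from parental cells transfected with a WNK2 expression plasmid, although WNK2 counts went against this for WNK2 trans Ctr. Those labelled WNK2- Ctr and WNK2- Sor are from cells in which CRISPR had deleted exon 2 of WNK2, a kinase of the WNK family that responds to osmotic change and chloride. The study's text and captions give 7 days at 100 mM for the chronic sorbitol treatment. WNK2- clonal lines were grown from single sorted cells, and the labels do not say which clone was sequenced, so a difference between clones and an effect of the deletion cannot be told apart, and no mock transfection is described for the WT groups. The study calls its RNA-seq replicates biological, and neither it nor the labels say whether they were separate cultures, so the p-values measure the spread between these libraries.

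Interleukin-1 binds IL1R1, which recruits the accessory chain IL1RAP and signals through MYD88 and IRAK kinases to NF-kB, a route known in cartilage for inducing matrix-degrading enzymes and further cytokines. IL-6, IL-11 and LIF each bind a receptor chain of their own and then signal through IL6ST (gp130), JAK kinases and STAT3, with SOCS3 as a feedback inhibitor. GM-CSF and G-CSF, which drive the growth and activation of myeloid cells, use receptors outside both families but are made by connective tissue cells stimulated with interleukin-1.

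The sequences before the start sites of IL1A, IL1B, IL6, IL11 and CSF2 are shown because the RNA of these 5 ligands rose together in 1 of the comparisons described further on. RefSeq windows of 300 bases (250 before and 50 after the start, GRCh38.p14) were at hand for 8 of the 10 genes, and none was at hand for LIF or CSF3. The 250 bases before the start are printed 5′ to 3′ on the strand of the gene, and capitals mark matches to the motifs searched for on both strands: the NF-kB motif, the motif of the tonicity-responsive factor NFAT5, AP-1 (TGANTCA), CRE (TGACGTCA), STAT (TTCNNNGAA) and the TATA box, for which TATAAA was searched.
IL1A: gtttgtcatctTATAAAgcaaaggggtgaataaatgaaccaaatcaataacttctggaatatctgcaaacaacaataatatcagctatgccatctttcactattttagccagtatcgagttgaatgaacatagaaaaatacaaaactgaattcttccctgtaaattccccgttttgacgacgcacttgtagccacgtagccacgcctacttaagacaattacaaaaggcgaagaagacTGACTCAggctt
IL1B: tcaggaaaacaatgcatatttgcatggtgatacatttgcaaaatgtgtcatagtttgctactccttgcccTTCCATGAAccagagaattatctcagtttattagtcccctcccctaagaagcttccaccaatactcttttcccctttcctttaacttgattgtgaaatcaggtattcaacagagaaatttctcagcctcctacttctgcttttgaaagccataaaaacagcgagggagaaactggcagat
IL6: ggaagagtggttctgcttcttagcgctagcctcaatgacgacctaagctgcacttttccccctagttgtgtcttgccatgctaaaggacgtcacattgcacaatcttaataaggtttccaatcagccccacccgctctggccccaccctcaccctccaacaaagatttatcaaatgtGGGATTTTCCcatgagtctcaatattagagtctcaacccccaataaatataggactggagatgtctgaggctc
IL11: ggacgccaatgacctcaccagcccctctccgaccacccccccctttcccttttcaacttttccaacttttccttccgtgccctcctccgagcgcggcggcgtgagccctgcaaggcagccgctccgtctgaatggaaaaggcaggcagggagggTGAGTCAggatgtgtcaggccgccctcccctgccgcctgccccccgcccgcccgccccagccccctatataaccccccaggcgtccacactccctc
CSF2: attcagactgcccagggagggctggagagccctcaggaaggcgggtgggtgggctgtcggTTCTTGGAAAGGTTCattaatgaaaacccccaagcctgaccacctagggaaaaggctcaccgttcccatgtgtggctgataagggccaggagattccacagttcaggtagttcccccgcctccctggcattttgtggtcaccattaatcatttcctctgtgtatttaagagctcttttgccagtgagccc
The IL1A stretch (chr2:112784494-112784743, minus strand), before the more upstream of its 2 RefSeq starts, held 1 TATA and 1 AP-1 match, and its window after the start held a further AP-1 match that also lies before the other start. The IL11 stretch (chr19:55370464-55370713, minus strand) held 1 AP-1 match. The IL1B stretch (chr2:112836780-112837029, minus strand) held 1 STAT match, the IL6 stretch (chr7:22726950-22727199, plus strand) 1 NF-kB match, and the CSF2 stretch (chr5:132073539-132073788, plus strand) 1 STAT match that overlapped 1 NFAT5 match. Among 35116 windows of 300 bases, 5.91% held the NF-kB motif, 4.92% the NFAT5 motif, 7.71% AP-1, 1.85% CRE, 7.66% STAT and 11.5% TATA. The same windows of IL1RAP and IL6ST held no match, and of the 4 windows of IL1R1, 1 held matches, 1 to STAT and 2 to TATA. These matches describe letters in a window and were not tied to any value measured here. GENCODE 29 places the ends of IL1A, IL1B and IL6 further upstream than these RefSeq starts.

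Raw counts per library summed to 14153002 to 25664619, and the levels are given as CPM, the count of a gene scaled to a common library size after TMM, a method that sets most genes level between libraries. Set beside each other, the groups labelled WT Ctr and WNK2 trans Ctr did not have the order of WNK2 that their labels give. The libraries labelled WNK2 trans Ctr had 163 to 290 raw WNK2 counts each, fewer than the 1217 to 2568 of the libraries labelled WT Ctr, with a log2 fold change of -3.32 (SE 0.21, edgeR adjusted p = 3.88e-11). WT Sor had 266 to 314, also far below WT Ctr (-3.06, SE 0.21, edgeR adjusted p = 1.52e-10), WNK2 trans Sor had 2237 to 3739 and the WNK2- libraries 322 to 503. WT Sor and WNK2- Sor did not differ detectably in WNK2 (0.25, SE 0.20, edgeR adjusted p = 0.330), and because counts cover the whole gene, transcripts that lack exon 2 are included. Group names below stand for the libraries so labelled, and any direction drawn from WT Ctr, WT Sor or WNK2 trans Ctr holds only as far as their labels do. Of 16 chondrocyte marker genes, 2 (SOX9 and CHAD) were listed at 0 in all 24 libraries, and COL2A1 had a group mean of 0.334 to 9.76 CPM. The summed chondrocyte markers ran from 104 to 161 CPM in the 16 libraries labelled WT or WNK2 trans and from 29 to 34.5 CPM in the 8 labelled WNK2-. HAPLN1 alone, a link protein of cartilage matrix, had group means of 46.4 to 117.5 CPM in the former and 13.8 to 18.0 CPM in the latter, so the sum does not show how the other markers moved. Of 10 leukocyte markers, which would point to cells that also make these cytokines, the sum was 4.80 to 24.1 CPM and 3 passed the filter on low counts, while PTPRC, which marks all leukocytes, had group means of 0.056 to 0.339 CPM. Endothelial markers summed to 27.5 to 110 CPM. In bulk RNA, fewer cells making a transcript and less transcript per cell cannot be told apart.

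Per kilobase of exon, the scale on which genes can be set beside each other, IL11 was the most abundant of the 10 in every group, with a mean of 101 CPM per kb in the libraries labelled WT Ctr. IL6 followed at 34.3, LIF at 24.7 and IL6ST at 15.7, while IL1B stood at 2.31, IL1A at 0.832 and CSF2 at 0.661. In the libraries labelled WNK2- Sor the order differed: IL1B, at a mean of 44.9 CPM per kb, stood next to IL11 at 56.9 and above LIF at 21.2 and IL6 at 15.8. In those labelled WNK2 trans Sor, IL11 stood at 165, IL6 at 76.0, LIF at 49.2, CSF3 at 23.2 and IL1B at 19.6 CPM per kb. All 10 genes passed the filter on low counts, and edgeR's quasi-likelihood test was run over the 16600 genes that did.

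**Figure D1:**
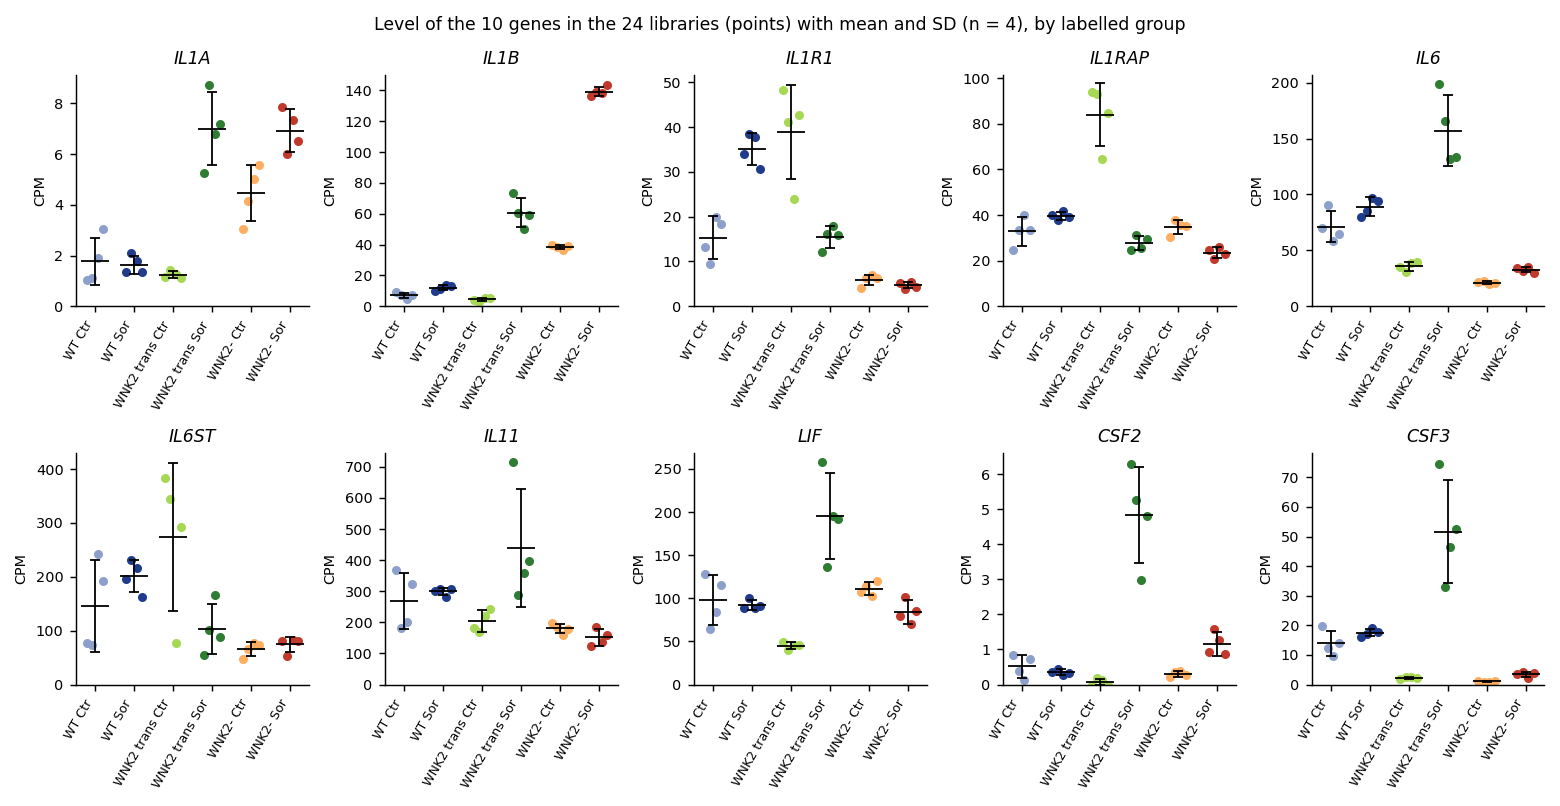
Level of each of the 10 genes in CPM (vertical axis, linear, from 0) in the 24 libraries, by labelled group. Points are libraries, and bars are the mean and SD of 4. All 7 ligand genes had their highest or second highest group mean in WNK2 trans Sor, and IL1B reached 136 to 143 CPM in WNK2- Sor.

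IL1B encodes interleukin-1 beta, which is secreted after cleavage by caspase-1 (CASP1). IL1B (ENSG00000125538, GRCh38 chr2:112829751-112836903) stood at 4.89, 7.16, 7.37 and 9.19 CPM in the libraries labelled WT Ctr and at 9.96, 11.5, 13.0 and 13.9 in those labelled WT Sor. In the libraries labelled WNK2- Ctr it was 36.3, 38.5, 38.9 and 40.0 CPM, and in those labelled WNK2- Sor 136, 138, 139 and 143. The libraries labelled WNK2 trans Ctr were the lowest, at 2.99, 4.27, 5.32 and 5.51 CPM, and those labelled WNK2 trans Sor reached 50.4, 59.1, 60.2 and 73.5. Only the WT Ctr and WNK2 trans Ctr ranges overlapped, and the other neighbours in the order WT Ctr, WT Sor, WNK2- Ctr, WNK2 trans Sor, WNK2- Sor were separated in every library. Against the matching WT libraries the log2 fold change was 2.43 in WNK2- Ctr (SE 0.16, edgeR adjusted p = 1.22e-11) and 3.52 in WNK2- Sor (SE 0.16, edgeR adjusted p = 4.40e-15). With sorbitol IL1B rose by 0.76 on the log2 scale in the WT libraries (SE 0.17, edgeR adjusted p = 0.00161), by 1.86 in the WNK2- libraries (SE 0.15, edgeR adjusted p = 2.07e-09) and by 3.76 in the WNK2 trans libraries (SE 0.17, edgeR adjusted p = 6.07e-15). The rise was larger in WNK2- than in WT cells by 1.09 (interaction, SE 0.22, edgeR adjusted p = 0.00252) and larger in the WNK2 trans than in the WT libraries by 3.00 (SE 0.24, edgeR adjusted p = 4.67e-10). The fall in WNK2 trans Ctr against WT Ctr, of -0.67 (edgeR adjusted p = 0.0130), was lost without WNK2 trans Ctr replicate 2 (-0.50, adjusted p = 0.0677) and in a fit of the compared groups alone (-0.68, adjusted p = 0.160).

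IL1A encodes interleukin-1 alpha, the ligand of the same receptor that acts without caspase-1. IL1A (ENSG00000115008, chr2:112773915-112784590) lies next to IL1B and was much less abundant, with raw counts from 16 to 211. Its levels were 1.05, 1.10, 1.89 and 3.04 CPM in WT Ctr, 1.33, 1.36, 1.77 and 2.08 in WT Sor, and 1.13, 1.15, 1.29 and 1.43 in WNK2 trans Ctr. These 3 groups overlapped. It was 3.04, 4.17, 5.02 and 5.58 CPM in WNK2- Ctr, 5.99, 6.52, 7.36 and 7.85 in WNK2- Sor, and 5.24, 6.79, 7.20 and 8.75 in WNK2 trans Sor. The lowest library of WNK2- Ctr lay only just above the highest of WT Ctr, and the WNK2- Sor and WNK2 trans Sor ranges overlapped. IL1A was higher by 1.35 on the log2 scale in WNK2- Ctr against WT Ctr (SE 0.26, edgeR adjusted p = 0.000184) and by 2.08 in WNK2- Sor against WT Sor (SE 0.26, edgeR adjusted p = 2.69e-07). With sorbitol it rose in the WNK2 trans libraries by 2.47 (SE 0.27, edgeR adjusted p = 3.58e-08), while the value in the WT libraries was -0.10 (SE 0.28, edgeR adjusted p = 0.830). In the WNK2- libraries the sorbitol value of 0.63 (SE 0.23) missed the threshold at an edgeR adjusted p of 0.0665, although no library of the groups overlapped, and it passed under 8 of 34 alternatives, DESeq2 among them (0.64, adjusted p = 0.0322), with adjusted p from 0.00870 to 0.234 over all of them.

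IL1R1 is the signalling receptor of both ligands. IL1R1 (ENSG00000115594, chr2:102064544-102179874) was lowest in the deletion line, at 4.13, 6.21, 6.26 and 6.90 CPM in WNK2- Ctr and 3.95, 4.38, 5.21 and 5.31 in WNK2- Sor. It was 9.42, 13.3, 18.4 and 20.03 CPM in WT Ctr and 30.6, 34.0, 37.7 and 38.4 in WT Sor, which did not overlap. It was 23.9, 41.1, 42.6 and 48.2 CPM in WNK2 trans Ctr and 12.1, 15.9, 16.2 and 17.8 in WNK2 trans Sor. As labelled, the level was higher with sorbitol in WT and lower in WNK2 trans, and both directions rest on the control labels that WNK2 went against. With those control labels exchanged, the group means of IL1R1 would go from 39.0 to 35.2 CPM in WT and from 15.3 to 15.5 in WNK2 trans. Those of IL1RAP would go from 84.1 to 39.6 CPM in WT and from 32.8 to 27.8 in WNK2 trans. WNK2 would then have a mean of 13.7 CPM in WT Ctr, below the 22.1 of WNK2- Ctr. Whether these or other labels were exchanged was not tested. The log2 fold change with sorbitol was 1.20 in WT (SE 0.21, edgeR adjusted p = 0.000163), -1.33 in WNK2 trans (SE 0.21, edgeR adjusted p = 9.75e-06) and -0.32 in WNK2- (SE 0.23, edgeR adjusted p = 0.399). The sorbitol effect differed from that in WT by -1.52 in WNK2- (SE 0.31, edgeR adjusted p = 0.00238) and by -2.53 in WNK2 trans (SE 0.29, edgeR adjusted p = 2.32e-07). IL1R1 was lower, at -1.38 in WNK2- Ctr against WT Ctr (SE 0.22, edgeR adjusted p = 1.58e-05) and -2.90 in WNK2- Sor against WT Sor (SE 0.22, edgeR adjusted p = 7.49e-11).

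IL1RAP is the accessory chain without which IL1R1 does not signal. IL1RAP (ENSG00000196083, chr3:190514051-190659750) was 24.5, 33.4, 33.5 and 39.9 CPM in WT Ctr, 37.7, 39.0, 40.2 and 41.6 in WT Sor and 30.5, 35.1, 35.7 and 37.8 in WNK2- Ctr. It was 20.6, 22.9, 24.5 and 26.1 CPM in WNK2- Sor and 24.8, 25.4, 29.5 and 31.4 in WNK2 trans Sor. Apart from all of these stood WNK2 trans Ctr, at 64.5, 84.8, 93.1 and 93.9 CPM. In the order of the group means each of the 5 lower groups overlapped its neighbour, and WNK2 trans Ctr overlapped none. IL1RAP fell with sorbitol by 0.57 on the log2 scale in WNK2- (SE 0.13, edgeR adjusted p = 0.00337) and by 1.60 in WNK2 trans (SE 0.13, edgeR adjusted p = 3.49e-10), and its value in WT was 0.27 (SE 0.13, edgeR adjusted p = 0.134). The WT value passed under 2 of 34 alternatives, which ran from 0.16 to 0.40. These were the fit without WT Ctr replicate 3 (0.40, adjusted p = 0.0362) and the removal of GC and length trends (0.20, adjusted p = 0.0295). The interaction was -0.84 for WNK2- (SE 0.18, edgeR adjusted p = 0.00500) and -1.87 for WNK2 trans (SE 0.18, edgeR adjusted p = 2.05e-08). Both receptor chains had the same lowest library in WNK2 trans Ctr, replicate 3, and without it both were still called higher than in WT Ctr.

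IL6 is the ligand that gives the family its name. IL6 (ENSG00000136244, chr7:22725884-22732002) was 58.3, 64.8, 70.2 and 90.4 CPM in WT Ctr, 79.7, 84.8, 94.6 and 97.2 in WT Sor, and 132, 133, 165 and 198 in WNK2 trans Sor. It was 30.6, 35.1, 38.5 and 39.5 CPM in WNK2 trans Ctr, 20.1, 21.2, 21.3 and 22.4 in WNK2- Ctr and 29.9, 31.9, 33.9 and 34.7 in WNK2- Sor. Every WNK2- library lay below every WT library. IL6 was lower in WNK2-, at -1.74 on the log2 scale without sorbitol (SE 0.13, edgeR adjusted p = 1.31e-10) and -1.45 with it (SE 0.13, edgeR adjusted p = 1.37e-09), while IL1B and IL1A were higher in the same libraries. With sorbitol IL6 rose by 0.62 in WNK2- (SE 0.13, edgeR adjusted p = 0.00171) and by 2.13 in WNK2 trans (SE 0.13, edgeR adjusted p = 1.94e-12). In WT the sorbitol value was 0.33 (SE 0.13, edgeR adjusted p = 0.0632), and it passed under 6 of 34 alternatives, among them without WT Ctr replicate 2 (0.47, adjusted p = 0.0106), with values from 0.25 (adjusted p = 0.0916 with the GC and length trends removed) to 0.47. The gene STEAP1B overlaps IL6 on the other strand, with 146 to 505 counts per library, and the strand setting of the counting was not given in the sources used here.

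**Figure D2:**
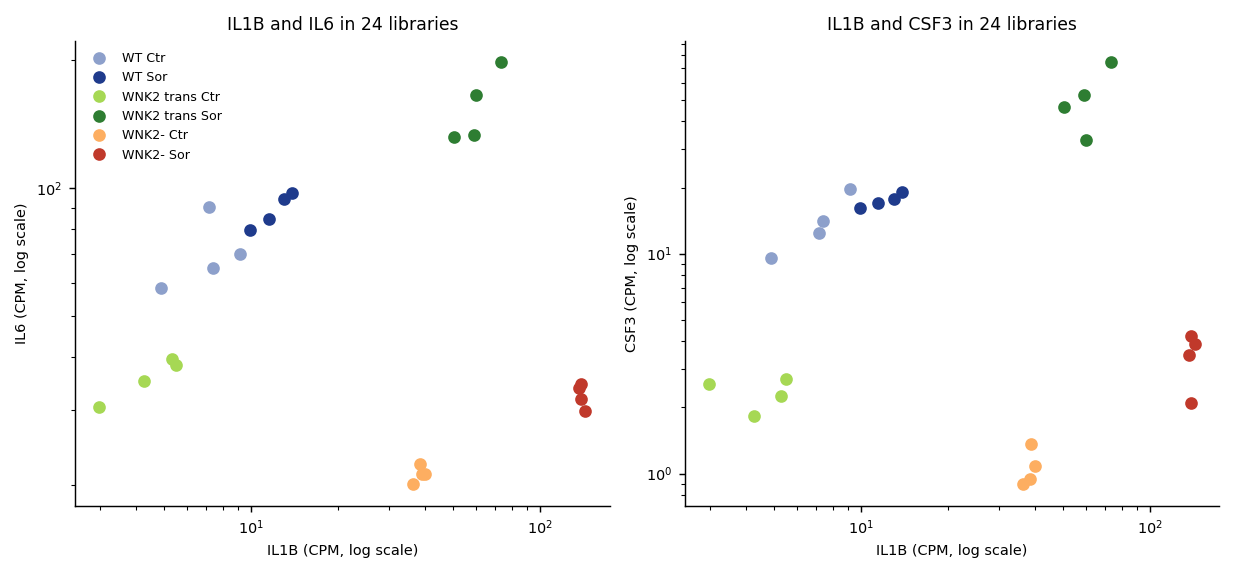
IL1B (horizontal axis) against IL6 (left) and CSF3 (right), in CPM on log scales, with 1 point for each of the 24 libraries, coloured by labelled group. Among the 16 libraries labelled WT or WNK2 trans the groups with more IL1B had more IL6, whereas the 8 labelled WNK2- combined IL1B of 36.3 to 143 CPM with IL6 of 20.1 to 34.7 CPM and CSF3 of at most 4.22 CPM.

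IL11, a fibrogenic ligand of the same family, was the most abundant member per length and spread over more than 2-fold inside WT Ctr and WNK2 trans Sor. IL11 (ENSG00000095752, chr19:55364389-55370463) was 183, 201, 325 and 367 CPM in WT Ctr, 283, 302, 306 and 307 in WT Sor, and 287, 359, 399 and 715 in WNK2 trans Sor. It was 168, 183, 222 and 244 CPM in WNK2 trans Ctr, 161, 179, 185 and 197 in WNK2- Ctr and 123, 138, 161 and 185 in WNK2- Sor. Each group overlapped its neighbour in the order of the means. IL11 was lower in WNK2- Sor than in WT Sor, at -0.98 on the log2 scale (SE 0.22, edgeR adjusted p = 0.000661) and higher in WNK2 trans Sor than in WNK2 trans Ctr by 1.11 (SE 0.22, edgeR adjusted p = 0.000198), in both cases with no overlap. The call in WNK2- Ctr against WT Ctr, -0.58 (SE 0.22, edgeR adjusted p = 0.0364), was close to the threshold. Leaving out WT Ctr replicate 1 gave -0.39 (adjusted p = 0.163) and leaving out WT Ctr replicate 4 gave -0.47 (adjusted p = 0.118). Without any 1 of the 4 WNK2- Ctr libraries the value stayed about as large, at -0.61 to -0.52, with an adjusted p of 0.0507 to 0.0973.

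LIF, the leukaemia inhibitory factor, passed no test between the WNK2- and WT libraries. LIF (ENSG00000128342, chr22:30240447-30246851) was 64.5, 83.7, 116 and 128 CPM in WT Ctr, 88.7, 89.1, 91.5 and 101 in WT Sor, 102, 108, 115 and 120.2 in WNK2- Ctr, and 69.9, 79.1, 85.2 and 102 in WNK2- Sor. These 4 groups overlapped in the order of their means, and no comparison among them passed the threshold (edgeR adjusted p 0.117 to 0.772). Every WNK2- Sor library lay below every WNK2- Ctr library, by little (-0.41, SE 0.17, edgeR adjusted p = 0.117), and this value passed in a fit of these groups alone (adjusted p = 0.00462) and with GC and length trends removed (adjusted p = 0.00439), with a range of 0.00439 to 0.290 over 34 alternatives. The WNK2 trans groups stood on either side of them, WNK2 trans Ctr at 39.9, 45.3, 46.2 and 48.9 CPM and WNK2 trans Sor at 136, 192, 196 and 258. LIF was lower in WNK2 trans Ctr than in WT Ctr, at -1.12 (SE 0.17, edgeR adjusted p = 5.62e-05), higher in WNK2 trans Sor than in WT Sor by 1.08 (SE 0.17, edgeR adjusted p = 2.89e-05), and rose between the WNK2 trans groups by 2.12 (SE 0.18, edgeR adjusted p = 4.49e-10).

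IL6ST encodes gp130, the chain through which all 3 of these ligands signal. IL6ST (ENSG00000134352, chr5:55935095-55994993) was 72.8, 76.4, 193 and 242 CPM in WT Ctr, 163, 195, 217 and 231 in WT Sor, 76.3, 292, 345 and 384 in WNK2 trans Ctr, and 55.0, 88.5, 101 and 167 in WNK2 trans Sor. It was 46.7, 66.0, 74.0 and 77.0 CPM in WNK2- Ctr and 52.9, 80.6, 81.5 and 83.5 in WNK2- Sor. Every neighbouring pair of groups overlapped, and the highest library was 3.33 times the lowest in WT Ctr and 5.03 times in WNK2 trans Ctr. Of the 2 WNK2- comparisons, WNK2- Sor against WT Sor was free of overlap (-1.43, SE 0.39, edgeR adjusted p = 0.00378). WNK2- Ctr against WT Ctr was -1.15 (SE 0.39, edgeR adjusted p = 0.0195), and it was lost without WT Ctr replicate 3 (-0.78, adjusted p = 0.118), without WT Ctr replicate 4 (-0.99, adjusted p = 0.0606) or without WNK2- Ctr replicate 1 (-1.01, adjusted p = 0.0637). IL6ST fell with sorbitol in the WNK2 trans libraries by 1.41 (SE 0.39, edgeR adjusted p = 0.00421), although WNK2 trans Ctr replicate 3, at 76.3 CPM, lay within the range of WNK2 trans Sor. In WNK2 trans Sor against WT Sor it was -0.97 (SE 0.39, edgeR adjusted p = 0.0573), and this value passed under 9 of 34 alternatives, which ran from -0.78 to -1.31 (adjusted p 0.00261 to 0.126).

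The spread of IL6ST and IL11 inside groups was set beside trends that ran over all genes of a library. IL6ST has 9292 exon bases and a GC content of 37.5%, at percentile 3.05 of the tested genes, and IL11 has 60.4% GC, at percentile 86.1. For each library the log2 level of a gene relative to its mean over all libraries was regressed on GC content and on length. In WT Ctr the length slope was 0.039 in both libraries with 193 and 242 CPM of IL6ST, and -0.018 and -0.004 in those with 76.4 and 72.8. In WNK2 trans Ctr it was -0.024 in the library with 76.3 CPM and 0.031 to 0.061 in the other 3, and in WNK2 trans Sor it was -0.060 in the library with 55.0 CPM. The GC slope did not order IL6ST in WT Ctr. Per 10 percentage points it was -0.146 and 0.090 in the libraries with 242 and 193 CPM, and 0.244 and -0.240 in those with 76.4 and 72.8. It was highest in the libraries with 76.3 CPM in WNK2 trans Ctr (0.298) and 55.0 CPM in WNK2 trans Sor (0.111). For IL11 the GC slope per 10 percentage points was 0.244 and 0.090 in the WT Ctr libraries with 367 and 325 CPM and -0.240 and -0.146 in those with 183 and 201. In WNK2 trans Sor it was 0.111 in the library with 715 CPM and -0.200 to -0.455 in the other 3. With these trends removed, an alternative chosen after the data were seen, IL6ST was -1.14 in WNK2- Ctr against WT Ctr (adjusted p = 0.00233), -1.51 in WNK2- Sor against WT Sor (adjusted p = 0.000109) and -1.17 in WNK2 trans Sor against WT Sor (adjusted p = 0.00261). IL11 was -0.55 (adjusted p = 0.000121), -0.78 (adjusted p = 6.92e-07) and 0.87 (adjusted p = 3.64e-07) in the same comparisons. In WNK2 trans Ctr against WT Ctr, IL6ST was 0.95 (adjusted p = 0.0220) and IL11 -0.54 (adjusted p = 0.000561), and neither passed before the trends were removed. What part the trends have in the values as first given was not tested further.

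**Figure D3:**
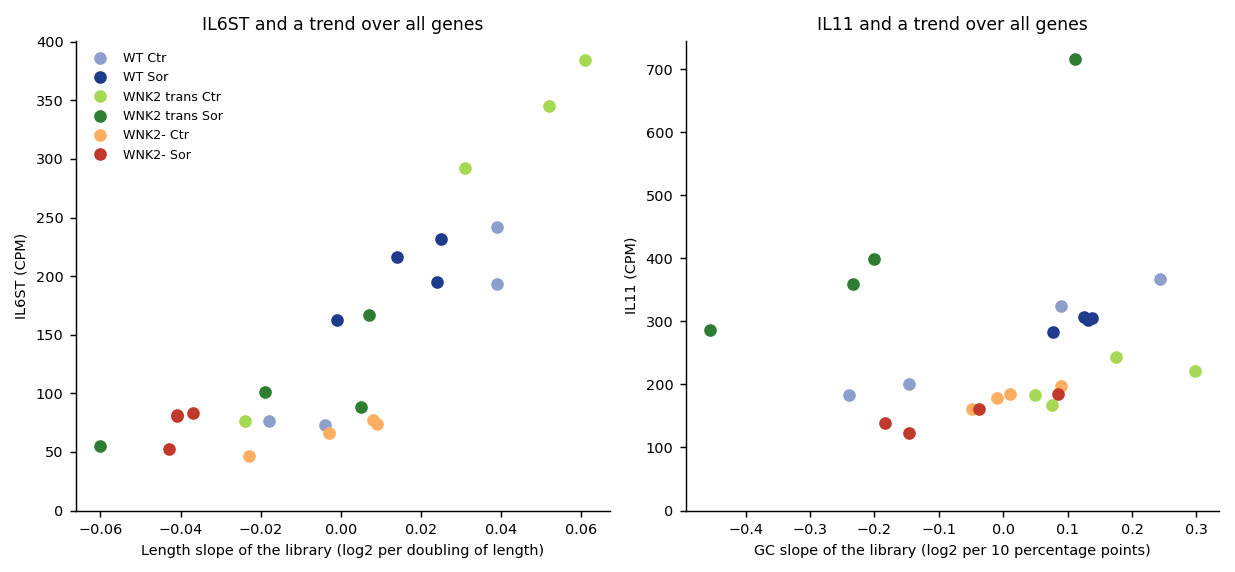
IL6ST in CPM against the library's slope over gene length (left) and IL11 in CPM against its slope over GC content (right), 1 point for each of the 24 libraries, coloured by labelled group. Within WT Ctr the 2 libraries with IL6ST of 193 and 242 CPM have a length slope of 0.039, and within WNK2 trans Sor the library with 715 CPM of IL11 has the highest GC slope, 0.111.

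CSF3, the granulocyte colony-stimulating factor, had the largest fall of the 10 genes in the untreated WNK2- libraries. CSF3 (ENSG00000108342, chr17:40015361-40017813) was 9.60, 12.4, 14.0 and 19.6 CPM in WT Ctr and 16.1, 17.0, 17.7 and 19.1 in WT Sor, against 0.892, 0.944, 1.08 and 1.36 in WNK2- Ctr and 2.10, 3.46, 3.87 and 4.22 in WNK2- Sor. It was 1.83, 2.25, 2.54 and 2.69 CPM in WNK2 trans Ctr and 32.8, 46.4, 52.6 and 74.6 in WNK2 trans Sor. The WT groups overlapped each other, and neither WNK2- group overlapped a WT group. CSF3 was lower, at -3.69 on the log2 scale in WNK2- Ctr against WT Ctr (SE 0.27, edgeR adjusted p = 5.19e-11), a 12.9-fold difference, and -2.35 in WNK2- Sor against WT Sor (SE 0.23, edgeR adjusted p = 6.59e-09). It was lower in WNK2 trans Ctr than in WT Ctr, at -2.56 (SE 0.25, edgeR adjusted p = 6.72e-08). With sorbitol it rose by 1.67 in WNK2- (SE 0.28, edgeR adjusted p = 0.000148) and by 4.45 in WNK2 trans (SE 0.25, edgeR adjusted p = 2.73e-13), a 21.9-fold change, and the WT value was 0.33 (SE 0.21, edgeR adjusted p = 0.273). Over 34 alternatives the WT value ran from 0.10, with the GC and length trends removed, to 0.55 (adjusted p 0.0634 to 0.605). The difference between the WNK2- and WT sorbitol effects, 1.34 (SE 0.36, edgeR adjusted p = 0.0198), was lost without WNK2- Ctr replicate 2 (1.26, adjusted p = 0.0547) or replicate 3 (1.24, adjusted p = 0.0573). CSF3 lies in a stretch of chromosome 17 with 74 other tested genes within 2 Mb. Their median was -0.46 in WNK2- Ctr against WT Ctr, 40 of them lower and 5 higher past the threshold, and -0.60 in WNK2- Sor against WT Sor. It was also below 0 where CSF3 was higher, at -0.22 in WNK2 trans Sor against WT Sor and -0.30 against WNK2 trans Ctr. Whether this shift of the region has a part in the CSF3 values was not tested. The neighbours of IL11 on chromosome 19 (84 genes) had medians of -0.31, -0.48, -0.27 and -0.33 in these comparisons, in that order. Those of IL1B (33 genes) had 0.20, 0.46, 0.25 and 0.34.

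CSF2, the granulocyte-macrophage colony-stimulating factor, was close to the limit of detection outside 2 groups. CSF2 (ENSG00000164400, chr5:132073790-132076170) had raw counts of 13, 6, 2 and 10 in replicates 1 to 4 of WT Ctr, 6, 7, 5 and 6 in WT Sor, 0, 4, 2 and 0 in WNK2 trans Ctr, and 4, 7, 8 and 6 in WNK2- Ctr. It had 25, 35, 24 and 17 counts in WNK2- Sor and 96, 96, 52 and 96 in WNK2 trans Sor. The libraries of these last 2 groups lay above all others and did not overlap each other, at 0.865 to 1.59 and 2.99 to 6.29 CPM. CSF2 was higher in WNK2- Sor than in WT Sor by 1.70 (SE 0.45, edgeR adjusted p = 0.00303) and in WNK2 trans Sor than in WT Sor by 3.75 (SE 0.43, edgeR adjusted p = 2.79e-07). With sorbitol it rose by 1.92 in WNK2- (SE 0.44, edgeR adjusted p = 0.00347), and the WT value was -0.53 (SE 0.51, edgeR adjusted p = 0.487). Over 32 alternatives the WT value ran from -0.86 to -0.16 (adjusted p 0.209 to 0.866). The rise in WNK2 trans, from 6 counts over the group to 340, was fitted as 5.72 (SE 0.53, edgeR adjusted p = 2.33e-09), a size that depends on how libraries at 0 are treated. The fall in WNK2 trans Ctr against WT Ctr (-2.50, SE 0.64, edgeR adjusted p = 0.00994) likewise rests on 6 counts against 31. The interaction for WNK2- was 2.45 (SE 0.68, edgeR adjusted p = 0.0248), and it was lost without WT Ctr replicate 1 (2.08, adjusted p = 0.0609), WT Sor replicate 3 (2.33, adjusted p = 0.0549) or WNK2- Ctr replicate 4 (2.38, adjusted p = 0.0524).

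Read by comparison, the members split in the WNK2- libraries without sorbitol: both interleukin-1 ligands were higher and IL1R1, IL6, IL6ST, IL11 and CSF3 lower in WNK2- Ctr than in WT Ctr. This made 7 of 10 members past the threshold, where 42.1% of all tested genes passed. The members' median log2 fold change was -0.66, beside 0.00 over all tested genes. Of the other ligands and receptors of the interleukin-6 family, 2 of 10 tested were higher and 4 lower. IL6R, the ligand-binding chain for IL-6, was higher (1.90, SE 0.30, edgeR adjusted p = 1.54e-05), from a group mean of 0.975 to 3.63 CPM. LIFR, the LIF receptor, was lower (-0.55, SE 0.20, edgeR adjusted p = 0.0284), and the CNTF receptor gene CNTFR had the largest fall of that list (-1.45, SE 0.18, edgeR adjusted p = 6.65e-07). Of 19 genes of interleukin-1 signalling and processing tested, 3 were higher and 10 lower, CASP1 among the latter (-1.25, SE 0.16, edgeR adjusted p = 5.54e-07). Of 15 JAK-STAT genes 2 were higher and 7 lower, led by BCL3, a STAT3 target (-1.41, SE 0.21, edgeR adjusted p = 9.36e-06). ZC3H12A, a ribonuclease that degrades IL6 mRNA, was lower (-1.26, SE 0.15, edgeR adjusted p = 2.01e-07), and 2 of the 8 tested genes of cytokine mRNA turnover were higher. Of the other interleukin-1 family genes 1 of 6 was higher and 1 lower, and of the other colony-stimulating factor genes 1 of 5 was higher, CSF1R (1.32, SE 0.25, edgeR adjusted p = 0.000167). The list medians were -0.28 for interleukin-1 signalling, -0.40 for the interleukin-6 family and -0.19 for JAK-STAT. In the same comparison 5 of 11 tested chondrocyte markers were lower and none higher, 4 of 5 tested endothelial markers were higher and 1 lower, and of 3 tested leukocyte markers 1 was higher and 1 lower. The part of these markers was not tested.

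With sorbitol in both groups, WNK2- Sor against WT Sor, where the counts showed no detectable difference in WNK2 RNA over the whole gene, IL1A, IL1B and CSF2 were higher, and IL1R1, IL1RAP, IL6, IL6ST, IL11 and CSF3 lower. These 9 of 10 members stood beside 46.3% of all tested genes, and the members' median was -0.87 beside 0.02 over all genes. LIF had a value of -0.14 (SE 0.17, edgeR adjusted p = 0.533). Of the other interleukin-6 family genes, 2 of 10 were higher, with IL6R at 1.71 (SE 0.27, edgeR adjusted p = 9.74e-06), and 5 were lower, LIFR at -1.49 (SE 0.20, edgeR adjusted p = 1.42e-06) and OSMR, the oncostatin M receptor, at -0.42 (SE 0.12, edgeR adjusted p = 0.00457) among them. SOCS3 was lower, at -0.73 (SE 0.19, edgeR adjusted p = 0.00281), and of the 15 JAK-STAT genes 2 were higher and 9 lower. Of the interleukin-1 signalling list 5 of 19 were higher and 7 lower, with IRAK1 among the higher (0.61, SE 0.17, edgeR adjusted p = 0.00537) and GSDMD, which forms the pore for IL-1 beta release, among the lower (-1.08, SE 0.19, edgeR adjusted p = 4.92e-05). Of the other interleukin-1 family genes 2 of 6 were higher and 3 lower, led by IL18R1, a chain of the IL-18 receptor (-2.54, SE 0.15, edgeR adjusted p = 3.13e-13). Of 8 mRNA turnover genes 2 were higher and 3 lower, with ZFP36, which destabilises cytokine mRNA, the largest fall (-1.68, SE 0.28, edgeR adjusted p = 2.28e-05), and of the other colony-stimulating factor genes 2 of 5 were lower. The list medians were -0.11 for interleukin-1 signalling, -0.39 for the interleukin-6 family, -0.35 for JAK-STAT and -0.64 for the other interleukin-1 family genes. Of the 11 tested chondrocyte markers 7 were lower and none higher, of 5 endothelial markers 2 were higher and 1 lower, and of 3 leukocyte markers 1 was higher and 1 lower. The part of these markers was not tested.

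**Figure D4:**
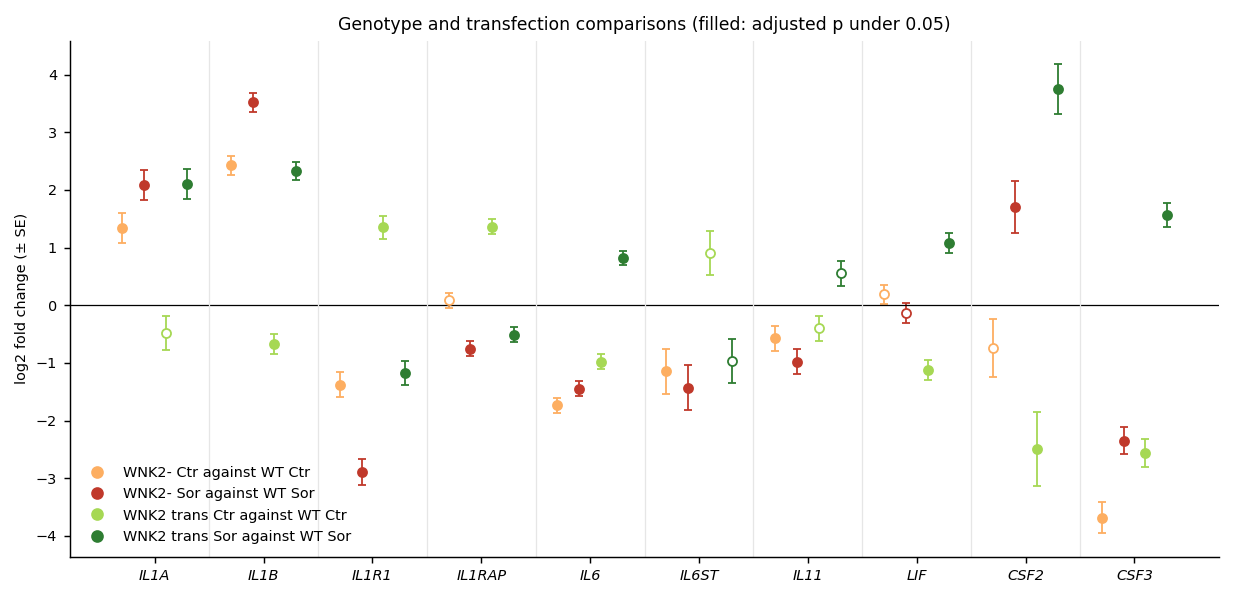
Log2 fold change (vertical axis, with SE) of each of the 10 genes in the 4 comparisons of WNK2- or WNK2 trans with WT libraries. Filled points passed the threshold of 0.05 on the adjusted p. In WNK2- against WT, IL1A and IL1B lie above 0 and IL6 and CSF3 below it, with and without sorbitol, while in WNK2 trans Sor against WT Sor all 4 lie above 0.

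In the libraries labelled WT 2 of these genes passed the threshold with sorbitol: IL1B and IL1R1 were higher in WT Sor than in WT Ctr. This was 2 of 10 members beside 24.1% of all tested genes, and the members' median of 0.30 stood beside 0.04. This count rests on the label WT Ctr. Against the group means of WNK2 trans Ctr instead, WT Sor had 12.1 CPM beside 4.52 for IL1B, 89.1 beside 35.9 for IL6, 92.5 beside 45.1 for LIF and 17.5 beside 2.33 for CSF3, a contrast that was not tested. Among related genes, IL6R rose by 1.06 on the log2 scale (SE 0.32, edgeR adjusted p = 0.0163), OSMR by 0.49 (SE 0.12, edgeR adjusted p = 0.00384) and SOCS3 by 0.66 (SE 0.19, edgeR adjusted p = 0.0145), and the LIFR value was 0.14 (SE 0.20, edgeR adjusted p = 0.656). IRAK2, a kinase of the interleukin-1 receptor complex, rose by 0.71 (SE 0.08, edgeR adjusted p = 3.84e-07) and IL3RA, a receptor chain of the GM-CSF receptor's family, by 1.44 (SE 0.17, edgeR adjusted p = 1.26e-06). By list, 4 of 6 other interleukin-1 family genes, 2 of 19 interleukin-1 signalling genes, 3 of 10 other interleukin-6 family genes, 2 of 15 JAK-STAT genes, 2 of 5 other colony-stimulating factor genes and 3 of 8 mRNA turnover genes passed, and the medians ran from -0.01 for interleukin-1 signalling to 0.36 for the other interleukin-1 family genes. WNK2 fell by 3.06 on the log2 scale in the same comparison, so a change of sorbitol and a change of WNK2 level cannot be told apart here. Of the markers, 1 of 11 tested chondrocyte, 2 of 3 leukocyte and 1 of 5 endothelial genes were higher and none lower, and their part was not tested.

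In the WNK2- libraries IL1B, IL6, CSF2 and CSF3 were higher and IL1RAP lower with sorbitol. These 5 of 10 members compare with 14.9% of all tested genes, with a median of 0.40 beside 0.00. IRAK2 rose here too, by 0.90 (SE 0.08, edgeR adjusted p = 5.47e-09), IL6R by 0.86 (SE 0.25, edgeR adjusted p = 0.0192), and LIFR fell by 0.80 (SE 0.20, edgeR adjusted p = 0.00744). Of the lists, 1 of 6 other interleukin-1 family genes, 3 of 19 interleukin-1 signalling genes, 4 of 10 other interleukin-6 family genes, 2 of 15 JAK-STAT genes and 1 of 8 mRNA turnover genes passed, and none of 5 other colony-stimulating factor genes did. Of the markers, 1 of 11 tested chondrocyte genes was higher and 2 lower, 1 of 5 endothelial genes was higher and none of 3 leukocyte genes passed, and their part was not tested. The sorbitol effect of WNK2- and WT cells differed for 5 of 10 members (IL1B, CSF2 and CSF3 higher, IL1R1 and IL1RAP lower), where 8.65% of all genes passed the same interaction test. LIFR differed as well (-0.94, SE 0.28, edgeR adjusted p = 0.0395), the 1 gene of 10 in the interleukin-6 family list that did. The other interleukin-1 family genes (2 of 6), the other colony-stimulating factor genes (2 of 5) and the JAK-STAT genes (1 of 15) that passed were all lower, and none of 19 interleukin-1 signalling or 8 mRNA turnover genes passed. Of 11 tested chondrocyte markers 2 were higher and 2 lower in this test, and no tested leukocyte or endothelial marker passed. Both the interaction and its directions rest on the label WT Ctr.

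**Figure D5:**
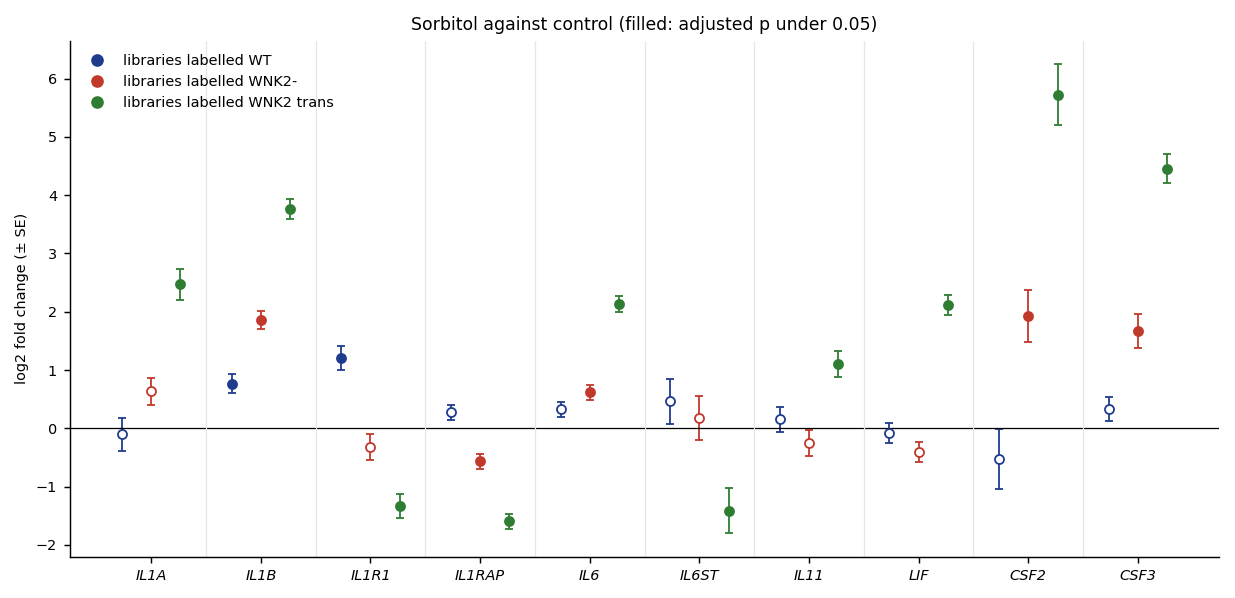
Log2 fold change with sorbitol (vertical axis, with SE) of each of the 10 genes in the libraries labelled WT, WNK2- and WNK2 trans. Filled points passed the threshold of 0.05 on the adjusted p. All 10 passed in the WNK2 trans libraries, beside 48.0% of all tested genes. CSF2 had the largest fitted value there, 5.72, over a control group with 6 counts in all. IL1R1 lies above 0 in WT and below 0 in WNK2 trans.

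In the libraries labelled WNK2 trans all 10 members differed between sorbitol and control, where 48.0% of all tested genes did: the 7 ligands rose and the 3 receptor chains fell. The members' median was 2.12, beside 0.01 over all genes. Receptors and the feedback inhibitor of the interleukin-6 family fell in the same comparison, LIFR by 1.86 (SE 0.21, edgeR adjusted p = 5.43e-08), OSMR by 0.59 (SE 0.12, edgeR adjusted p = 0.000223) and SOCS3 by 1.64 (SE 0.20, edgeR adjusted p = 1.94e-07). IL6R rose by 0.72 (SE 0.28, edgeR adjusted p = 0.0396) and IRAK2 by 1.97 (SE 0.08, edgeR adjusted p = 4.38e-16), while CASP1 fell by 0.96 (SE 0.15, edgeR adjusted p = 1.47e-05). Of the lists, 5 of 6 other interleukin-1 family genes (3 higher), 7 of 19 interleukin-1 signalling genes (3 higher), 7 of 10 other interleukin-6 family genes (2 higher), 10 of 15 JAK-STAT genes (4 higher), 2 of 5 other colony-stimulating factor genes (both lower) and 6 of 8 mRNA turnover genes (3 higher) passed. All 11 tested chondrocyte markers differed as well, 8 of them lower, as did 3 of 5 tested endothelial markers, all higher, and 3 of 3 tested leukocyte markers, 2 of them higher. CDH5 went from a group mean of 1.15 to 50.2 CPM. The part of these markers was not tested. The WNK2 trans sorbitol effect differed from that of WT for all 10 members, 7 higher and 3 lower, where 35.5% of all genes passed. This count rests on the labels WT Ctr and WNK2 trans Ctr. With these exchanged, CSF3 would go from 2.33 to 17.5 CPM in WT and from 13.9 to 51.6 in WNK2 trans, and whether they were exchanged was not tested. In that test, with the labels as given, 5 of 10 other interleukin-6 family genes were lower and none higher, with a median of -0.96. Of the other lists, 5 of 6 other interleukin-1 family genes (2 higher), 4 of 19 interleukin-1 signalling genes (1 higher), 9 of 15 JAK-STAT genes (3 higher), 3 of 5 other colony-stimulating factor genes (all lower) and 4 of 8 mRNA turnover genes (2 higher) passed. Of 11 tested chondrocyte markers 1 was higher and 8 lower, 1 of 3 leukocyte markers was lower and 1 of 5 endothelial markers higher, and their part was not tested. The interaction of IL11, 0.95 (SE 0.31, edgeR adjusted p = 0.0181), was lost without WNK2 trans Sor replicate 1 (0.59, adjusted p = 0.0618). Because WNK2 itself was 3.59 higher on the log2 scale in WNK2 trans Sor than in WNK2 trans Ctr (SE 0.22, edgeR adjusted p = 7.92e-13), a change of sorbitol and a change of WNK2 level cannot be told apart in this comparison.

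The contrast of WNK2 trans Sor with WT Sor compares libraries that both had sorbitol. The order of WNK2 between them was that of the labels (3.33 higher, SE 0.21, edgeR adjusted p = 1.28e-11). The mean WNK2 level was 16.5 CPM in WT Sor, near the 19.6 of WNK2- Sor, and 165 in WNK2 trans Sor, near the 137 of WT Ctr. This contrast thus also rests on the label WT Sor. In WNK2 trans Sor, IL1A, IL1B, IL6, LIF, CSF2 and CSF3 were higher than in WT Sor, and IL1R1 and IL1RAP lower. These 8 of 10 members stood beside 31.7% of all genes, with a median of 0.95 beside 0.01. IL1A was higher by 2.10 (SE 0.26, edgeR adjusted p = 8.23e-07), IL1B by 2.33 (SE 0.16, edgeR adjusted p = 3.79e-11), IL6 by 0.82 (SE 0.13, edgeR adjusted p = 2.40e-05) and CSF3 by 1.56 (SE 0.21, edgeR adjusted p = 3.10e-06), each with no overlap of libraries. IL11, at 0.56 (SE 0.22, edgeR adjusted p = 0.0536), passed under 10 of 34 alternatives and ran from 0.20 without WNK2 trans Sor replicate 1 (adjusted p = 0.408) to 0.87 with the trends removed (adjusted p = 3.64e-07). LIFR was lower, at -0.95 (SE 0.20, edgeR adjusted p = 0.000782) and SOCS3 at -1.01 (SE 0.19, edgeR adjusted p = 0.000271), and OSMR had a value of -0.02 (SE 0.12, edgeR adjusted p = 0.922). Of the lists, 5 of 6 other interleukin-1 family genes, 3 of 19 interleukin-1 signalling genes, 4 of 10 other interleukin-6 family genes (all lower), 9 of 15 JAK-STAT genes (3 higher), 2 of 5 other colony-stimulating factor genes (both lower) and 3 of 8 mRNA turnover genes passed. Of 5 tested endothelial markers 2 were higher, and the median of that list was -0.04. CDH5 had a group mean of 9.38 CPM in WT Sor and 50.2 in WNK2 trans Sor, and KDR 0.089 and 0.443. In the same order PECAM1 had 52.7 and 50.4 CPM, ESAM 3.05 and 2.97, and VWF 0.756 and 0.621. Of 11 chondrocyte markers 1 was higher and 8 lower, and of 3 leukocyte markers 1 was higher and 1 lower. The part of these markers was not tested.

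In the absence of sorbitol the libraries labelled WNK2 trans Ctr, which held less WNK2 RNA than those labelled WT Ctr, had lower IL1B, IL6, LIF, CSF2 and CSF3 and higher IL1R1 and IL1RAP. These 7 of 10 members stood beside 12.5% of all genes, with a median of -0.58 beside 0.01. IL6 was lower, at -0.98 (SE 0.13, edgeR adjusted p = 7.51e-06), IL1R1 higher by 1.35 (SE 0.21, edgeR adjusted p = 4.93e-05) and IL1RAP by 1.36 (SE 0.13, edgeR adjusted p = 6.32e-08). IL6ST, at 0.91 (SE 0.38, edgeR adjusted p = 0.125), passed under 3 of 33 alternatives: without WT Ctr replicate 3 (1.28, adjusted p = 0.0453), without WNK2 trans Ctr replicate 3 (1.22, adjusted p = 0.0143) and with the GC and length trends removed (0.95, adjusted p = 0.0220). IL11, at -0.40 (SE 0.22, edgeR adjusted p = 0.251), passed under 1 of 33, with the trends removed (-0.54, adjusted p = 0.000561). Receptors of the interleukin-6 family were higher in the same libraries, LIFR by 1.04 (SE 0.20, edgeR adjusted p = 0.000692) and OSMR by 1.06 (SE 0.12, edgeR adjusted p = 6.84e-07), as was SOCS3 by 1.28 (SE 0.19, edgeR adjusted p = 4.17e-05). IRAK2 was lower, at -0.54 (SE 0.08, edgeR adjusted p = 2.27e-05), the 1 gene of 19 in the interleukin-1 signalling list that passed. Of the other lists, 3 of 6 interleukin-1 family genes, 5 of 10 interleukin-6 family genes, all higher, 4 of 15 JAK-STAT genes (2 higher), 3 of 5 colony-stimulating factor genes, all higher, and 2 of 8 mRNA turnover genes passed. Of the tested markers, 3 of 11 chondrocyte genes were higher and 1 lower, 1 of 3 leukocyte genes was higher, and 1 of 5 endothelial genes was lower, CDH5, whose group mean went from 10.5 to 1.15 CPM; their part was not tested. This comparison, WNK2- Ctr against WT Ctr and WT Sor against WT Ctr share the 4 WT Ctr libraries.

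Several natural partners of these ligands were hardly found. IL1RN, the receptor antagonist that blocks interleukin-1, had group means of 0 to 0.256 CPM, IL1R2, the decoy receptor, 0 to 0.186, and CSF3R, the G-CSF receptor, 0 to 0.133, and none of them passed the filter on low counts. IL11RA, the ligand-binding chain for IL-11, was listed at 0 in all 24 libraries, as was TIA1, an RNA-binding protein gene that most cells use, so a listing at 0 cannot be read as a lack of RNA. CSF2RA, a chain of the GM-CSF receptor, had group means of 0.245 to 0.654 CPM, and its comparisons gave edgeR adjusted p-values of 0.0689 to 0.964.

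Across the 24 libraries the log2 CPM of IL6 and CSF3 had a Pearson correlation of 0.97, the highest of the 45 pairs of members, and IL1A and IL1B one of 0.90. IL1B and IL6 had a value of -0.05 over the same libraries, and IL1B and IL1R1 one of -0.77. These are descriptions over libraries that share groups, depth and the trends above. The genes most like IL1B in pattern among the 16600 tested were AOX1 (0.98), CDA (0.98) and ARHGAP22 (0.98), and those most like IL6 were APOBEC3G (0.97), CSF3 (0.97) and CEMIP (0.96). APOBEC3G and CEMIP were also 2 of the 3 genes most like CSF3 (0.95 for both). The genes most like IL1A were RBMS2, LPAR1 and ADAMTS6 (0.96 each), and those most like IL1R1 HEG1, TNS3 and IGSF10 (0.98 each). For IL1RAP they were JAG1 (0.96), ENOX1 (0.94) and ZEB2 (0.94), and for IL6ST ZNF217 (0.96), RSF1 (0.95) and ZNF483 (0.94). LIF was most like CDH5 (0.92), DHCR7 (0.90) and WDR62 (0.90), IL11 most like CYP2S1 (0.95), ISG15 (0.92) and IFI6 (0.88), and CSF2 most like DCDC2 (0.93), MMP9 (0.91) and XIRP2 (0.90).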

How the data were processed

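The deposited files hold raw counts of reads per gene for each of 24 libraries of T/C-28a2 cells. The authors made these counts from poly(A)-enriched libraries, and the submitters' processing notes name FastQC 0.11.9, HISAT2 2.2.1, HTSeq 2.0.2, DESeq2 1.38.3 and GRCh38. The annotation release and the strand setting of the counting are not given in the sources used here. Groups and replicate numbers came from the labels, and the sorbitol dose and time from the study's text and captions.

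Counts were analysed in R 4.3.3 with edgeR 4.0.16 (limma 3.58.1). Genes were kept by filterByExpr (minimum count 10, minimum total 15), which left 16600, and libraries were scaled by TMM. One quasi-likelihood fit over the 6 groups served 7 contrasts of group pairs and 2 interactions. P-values were adjusted over all genes (Benjamini-Hochberg), with a threshold of 0.05. Log2 CPM for correlations used a prior count of 2. The script was tested on simulated data. Positions came from GENCODE 29 (58279 of 62703 identifiers), promoter windows and their 12 entries for 8 members from RefSeq (GRCh38.p14), and figures from matplotlib 3.10.9.

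The members, the lists of related genes and the tests were chosen with earlier results of these data known. All 10 members are described. Of each related list the called genes with the largest rise and fall (mean log2 CPM of at least 1) could be named in each pairwise comparison, together with the members' natural inhibitors and receptors (IL1RN, IL1R2, IL6R, IL11RA, LIFR, OSMR, SOCS3, CSF2RA, CSF3R) and the 3 genes most correlated with each member. TIA1 and CDH5 were named after their values were seen. Some genes that this rule selects are not reported here. The alternatives were DESeq2 1.42.0, RLE and upper-quartile scaling, no filter, a stricter filter (10 or more counts in each library), a fit restricted to the groups under comparison, a fit without the WNK2 trans Ctr group, a replicate block, counts thinned to equal depth, each library left out in turn, and, added after the data were seen, removal of each library's trend over GC content and length. Replicate pairs differed by 2.30 to 67.9 times sampling noise (chi-square per degree of freedom), so none was treated as a duplicate.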

Additional observations from a re-analysis of the deposited data

Results flagged for a closer look

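The sorbitol effect differed between WNK2- and WT cells for 5 genes by the edgeR interaction test: IL1B (1.09), CSF2 (2.45) and CSF3 (1.34) were higher and IL1R1 (-1.52) and IL1RAP (-0.84) lower, as log2 differences of the sorbitol fold changes. Of all tested genes, 8.65% passed this test. Leaving out certain single libraries lost the calls of CSF2 (edgeR adjusted p 0.0524 to 0.0609) and CSF3 (edgeR adjusted p 0.0547 and 0.0573). Between WNK2 trans and WT cells the sorbitol effect differed for all 10, where 35.5% of all tested genes passed. The ligands were higher, by 2.58 for IL1A, 3.00 for IL1B, 1.80 for IL6, 0.95 for IL11, 2.2 for LIF, 6.25 for CSF2 and 4.12 for CSF3. The receptor chains were lower, at -2.53 for IL1R1, -1.87 for IL1RAP and -1.88 for IL6ST. The CSF2 size rests on a group with 6 counts in all. Both interactions use the WT Ctr libraries, and the second also the WNK2 trans Ctr libraries, whose WNK2 counts go against their label.

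One library stood far from the other 3 of its group by Dixon's criterion: IL6ST in WNK2- Sor replicate 2, at 52.9 CPM, with a gap of 0.905 of the group's range (above the critical value for 4 samples). Of 60 such group tests 1 was met, and chance alone meets it in about 1 of 20.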

How the results depend on the processing

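Of the 90 fold changes of members, the alternatives left 2952 values with the direction and call of the report, lost 18 calls, gained 41 and turned 7 directions, each of a value that was not called. In WT Sor against WT Ctr these were IL1A (0.277 without WT Ctr replicate 4, -0.2766 to 0.277 over single libraries left out), LIF (0.0809 and 0.0184 without WT Ctr replicates 1 and 4, -0.2302 to 0.0809) and IL11 (-0.0314 with GC and length trends removed). In WNK2- Ctr against WT Ctr it was IL1RAP (-0.0355 without WT Ctr replicate 1, -0.0355 to 0.2015 over single libraries, and -0.0027 with trends removed), and in WNK2- Sor against WT Sor LIF (0.0171 with trends removed). Of the lost calls 16 came from leaving out 1 library, and DESeq2 lost none and gained 2. With each library left out in turn, the members called numbered 2 to 3 in WT Sor against WT Ctr, 5 to 7 in WNK2- Ctr against WT Ctr, 9 in WNK2- Sor against WT Sor, 5 to 6 in WNK2- Sor against WNK2- Ctr, 6 to 8 in WNK2 trans Ctr against WT Ctr, 8 to 10 in WNK2 trans Sor against WT Sor, 10 in WNK2 trans Sor against WNK2 trans Ctr, and 4 to 5 and 9 to 10 in the interactions. CSF2 was not tested where every library needed 10 counts.

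With the replicate number as a replicate block, the members called were 2, 7, 9, 6, 7, 8, 10, 5 and 10 in the same order, and 1 call was gained, IL1A in WNK2- Sor against WNK2- Ctr (0.68, adjusted p = 0.0487). The deviations of same-numbered libraries from their group means had a median correlation of 0.013, over 0.1 in 10 of 60 pairs and at most 0.458. For libraries with different numbers it was 0.001, over 0.1 in 24 of 180 pairs and at most 0.395. A median over all pairs of groups cannot decide whether the numbers pair the libraries of particular groups.

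Over all genes, fitting the compared groups alone moved the calls from 2473 to 4824 in WNK2- Sor against WNK2- Ctr and from 2082 to 747 in WNK2 trans Ctr against WT Ctr. Removing the trends moved them from 4008 to 6063 in WT Sor against WT Ctr, from 2473 to 4437, from 2082 to 3137, and from 1436 to 2387 for the WNK2- interaction, which was 944 without WNK2- Ctr replicate 2 and 849 without WNK2- Sor replicate 3. The cause was not tested. CSF2 had at most 35 counts a library outside WNK2 trans Sor, and with counts thinned to the smallest library all 90 results kept their call and direction.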
